A study of Equus caballus with 12 samples.

Results

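The miRNAs miR-194 and miR-215 were followed across the heart, lung and liver of the horse. They are the 2 rows named eca-miR-194 and eca-miR-215 in a table of 629 entries, of which 294 bear a known horse miRNA's name, and both passed the filter that left 256 known miRNAs for testing. The table covers 12 libraries of small RNA, 1 from each of 3 tissues of 4 horses, which the labels number 27, 30, 32 and 34. All were healthy cold-blooded stallions aged 1 to 2 years, sampled at slaughter. The pieces came from the left ventricle, the caudal lobe of the right lung and the right lobe of the liver, so each library holds all cell types of its piece. The question was how the 3 tissues differ in their miRNAs.

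miRNAs are short RNAs that guide silencing proteins to messenger RNAs, mostly through the bases near their 5′ end called the seed. In mammals, miR-194 and miR-215 are best known from hepatocytes and from the epithelium of gut and kidney. They differ in seed, and miR-215 shares its seed with miR-192, to which it is closely related. The libraries hold no messenger RNA, so neither the targets of the members nor the factors that drive their genes were measured here.

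The RefSeq annotation of the horse (TB-T2T assembly) lists 2 genes of miR-194 and 1 of miR-215. One miR-194 gene, MIR194-2, is the partner of MIR215, and the annotated bounds of IARS2, which encodes the mitochondrial isoleucyl-tRNA synthetase, hold both. The other, MIR194-1, lies beside MIR192 with no annotated gene between them. The table gives miR-194 in 1 row, so the reads of the 2 genes cannot be told apart. miR-192 was not analysed here, and since it is so close to miR-215, the split of reads between these names depends on how the authors counted them.

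The values are read counts that the authors normalized with DESeq2. By the depth derived from them, heart libraries held 8113895 to 9355513 reads. Lung libraries ran from 3536536 to 7560746 reads and those of liver from 3066869 to 8595569, with the fewest in horse 27. The labelled tissues carried their own markers. The summed level of 6 striated muscle miRNAs was 5460419 to 8413935 normalized counts in heart, against at most 12572 in lung and 6447 in liver. Among the 6, miR-208a was above 0 in the heart of horse 27 alone. Of the hepatocyte miRNAs other than the members, the 4 with a row summed to 1308780 to 1863659 in liver and to at most 153118 in heart and 280286 in lung. Most of the heart and lung sums was miR-148a. miR-122 was at most 3116 in heart and 2294 in lung, against at least 948651 in liver.

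miR-194 was a liver miRNA in all horses. Its normalized counts in liver were 33886, 35343, 34401 and 36305 in horses 27, 30, 32 and 34. In heart they were 155, 99.6, 129 and 150, and in lung 399, 271, 241 and 443. The 3 tissues did not overlap, with liver highest, lung next and heart lowest. The means were 34984 ± 1068 in liver, 339 ± 98.1 in lung and 133 ± 25.3 in heart (SD, n = 4 each), so that heart held 0.381% and lung 0.968% of the liver level. Among the known miRNAs of a library, ordered by level, miR-194 stood at places 20 to 23 in liver, 123 to 132 in lung and 149 to 153 in heart.

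miR-215 followed the same division at a lower level. It was at 4856, 6548, 5314 and 8376 normalized counts in the livers of horses 27, 30, 32 and 34. The hearts held 16.2, 34.2, 30.2 and 60.6, and the lungs 27.4, 36.5, 50.5 and 32.8. Every liver stood far above every heart and lung, while in these normalized counts heart and lung covered the same range. The means were 6274 ± 1573 in liver, 36.8 ± 9.88 in lung and 35.3 ± 18.6 in heart (SD, n = 4 each), or 0.587% and 0.562% of the liver level for lung and heart. The low values rest on few reads. The 16.2 in the heart of horse 27 stands for 13 reads, with an exact Poisson 95% interval of 8.61 to 27.6 normalized counts, and the highest heart value, in horse 34, for 36 reads (42.4 to 83.9). These intervals cover counting error only.

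**Figure D1:**
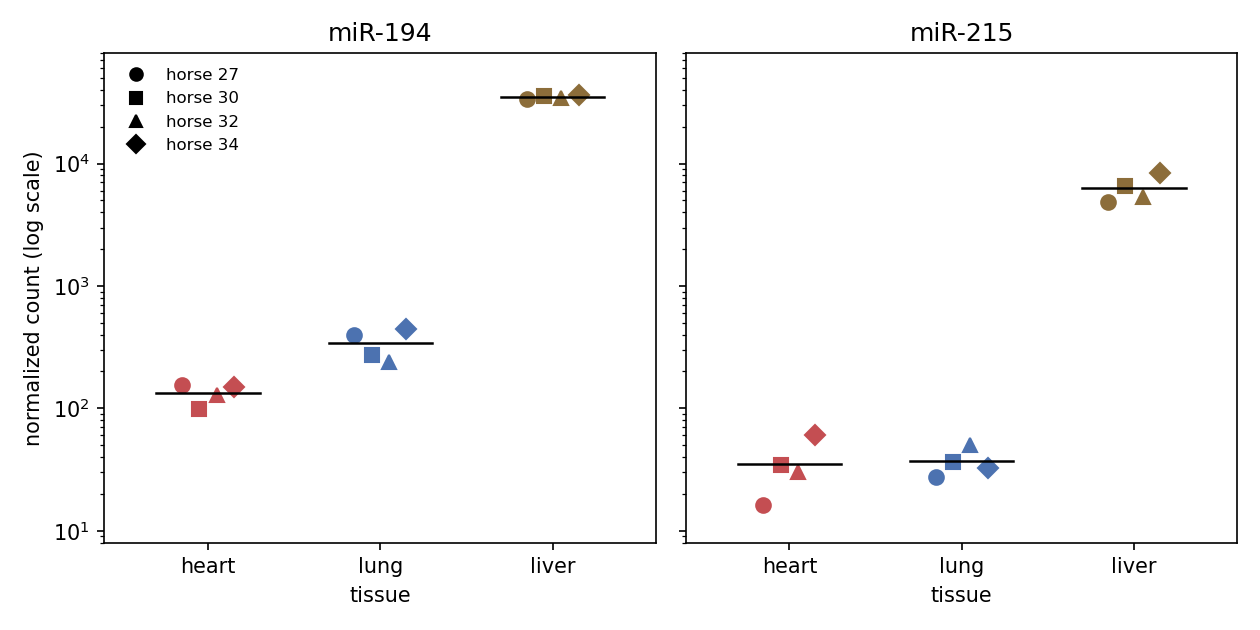
Normalized count (y axis, log scale) of miR-194 and miR-215 in each library by tissue (x axis). Points are libraries, with a marker for each horse, and lines are the means of 4 libraries. The livers lie at 33886 or more for miR-194 and 4856 or more for miR-215, and the hearts and lungs at most at 443 and 60.6.

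Heart against liver asks what sets the 2 organs apart. miR-194 averaged 262-fold and miR-215 178-fold more in liver. On the scale of log2(normalized count + 1), the heart over liver change was -8.05 for miR-194 (standard error 0.23, adjusted p = 1.14e-10 from limma) and -7.55 for miR-215 (standard error 0.37, adjusted p = 1.54e-08, limma). A miRNA was called where the adjusted p was under 0.05 and the log2 values differed by 1 or more. Both members were called higher in liver, as were 27% of the 256 tested. That share depends on the scaling. With every library set to the same total of known miRNAs (CPM), the median over all 256 log2 fold changes moved by -1.16. The calls went from 51 higher and 69 lower in heart to 26 higher and 138 lower. Both members were still called, miR-194 at -9.25 and miR-215 at -8.74. The 4 hearts and the 4 livers did not overlap for either member, nor did they for 52.3% of the 256. By the size of the change, miR-194 was the 7th and miR-215 the 11th most liver-sided of the 256. By p, miR-194 was 2nd and miR-215 was 4th. In tissue pieces, fewer cells that make a miRNA and less of it per cell cannot be told apart.

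Lung against liver had the same direction. miR-194 averaged 103-fold and miR-215 170-fold more in liver. The log2 fold changes of lung over liver were -6.73 for miR-194 (standard error 0.23, adjusted p = 8.30e-10, limma) and -7.38 for miR-215 (standard error 0.37, adjusted p = 2.53e-08, limma). Both were called higher in liver, where 26.6% of the 256 were, and neither had an overlap of lung and liver, which was so for 52.7% of the 256. In this comparison miR-194 stood 17th and miR-215 13th by the size of the change. By its estimate miR-215 thus lay closer to the liver end than miR-194, the reverse of their order in heart against liver. The ratio of miR-194 to miR-215 within a library did not pass in either comparison. Its adjusted p was 0.354 for heart and 0.257 for lung against liver (exact permutation test). Both comparisons use the same 4 livers.

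In lung against heart, miR-194 was called and miR-215 was not. miR-194 averaged 2.54-fold more in lung, with a log2 fold change of 1.31 (standard error 0.23, 95% interval 0.80 to 1.83, adjusted p = 0.000762, limma), and was called higher in lung, as were 19.5% of the 256. The lowest lung value, 241, lay above the highest heart value, 155. The values of lung and heart did not overlap in 44.5% of the tested miRNAs. miR-215 differed by 0.17 (standard error 0.37, 95% interval -0.65 to 0.98, adjusted p = 0.741, limma), which did not pass the test, and the interval leaves room for a change of nearly 2-fold. This comparison also depends on the scaling. With every library set to the same total of known miRNAs (CPM), the median over all 256 log2 fold changes moved by 1.24, and the calls went from 50 higher and 49 lower in lung to 124 higher and 16 lower. miR-194 was then at 2.69, or 1.45 above the median against 1.31 before. miR-215 was called at 1.52 (adjusted p = 0.00146, limma), or 0.28 above the median against 0.17 before. In CPM (reads per 1000000 reads of known miRNAs), miR-194 was at 77.5 ± 29.9 in lung, 11.5 ± 3.09 in heart and 6975 ± 801 in liver (SD, n = 4), and miR-215 8.18 ± 1.78, 2.85 ± 0.98 and 1242 ± 272.

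miRNAs of epithelial cells also moved between lung and heart. The summed level of the 6 on the list (the miR-200 family members miR-200a, miR-200b, miR-200c, miR-141 and miR-429, which maintain the epithelial state, and miR-205 of basal cells) was 66725 to 83600 normalized counts in lung, 317 to 1008 in heart and 5369 to 7500 in liver. All 6 were called higher in lung than in heart, and miR-141 was at 0 in every heart library. The part of epithelial cells in the lung level of miR-194 was not tested.

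Other miRNAs of hepatocytes showed how the members compare. The list holds miR-122, the dominant hepatocyte miRNA, miR-148a, which promotes hepatocyte maturation, miR-885-5p, miR-802, miR-192 and the members. Of the 7, 6 had a row and 5 were tested. The 3 tested besides the members were all called lower in heart and in lung than in liver. Their log2 fold changes in heart and in lung were -9.75 and -10.04 for miR-122, -5.60 and -9.23 for miR-885-5p and -2.76 and -2.06 for miR-148a. The medians of the 3 are thus the values of miR-885-5p, against -0.23 and 0.08 over all 256. The members lay between miR-122 and miR-148a in both. In lung over heart, miR-194 was higher, miR-885-5p was lower, and the other 3 did not pass limma's test. miR-885-5p averaged 618 ± 181 in liver and 11.4 ± 0.81 in heart (SD, n = 4) and was listed at 0 in every lung. Its heart values stood for only 7 to 11 reads, so its call of lower in lung than in heart rests on few reads. miR-802 was too low to be tested. It was above 0 in 3 livers, at up to 31.0, and in no heart or lung. The lowest value above 0 in a library stood for 6 reads, so a listed 0 can hide lower counts. Both miRNAs were lower in liver than miR-194. The heart mean of miR-885-5p was 1.85% of its liver mean, against 0.381% for miR-194. Whether the zeros set miR-885-5p or miR-802 apart from miR-194 was not tested.

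**Figure D2:**
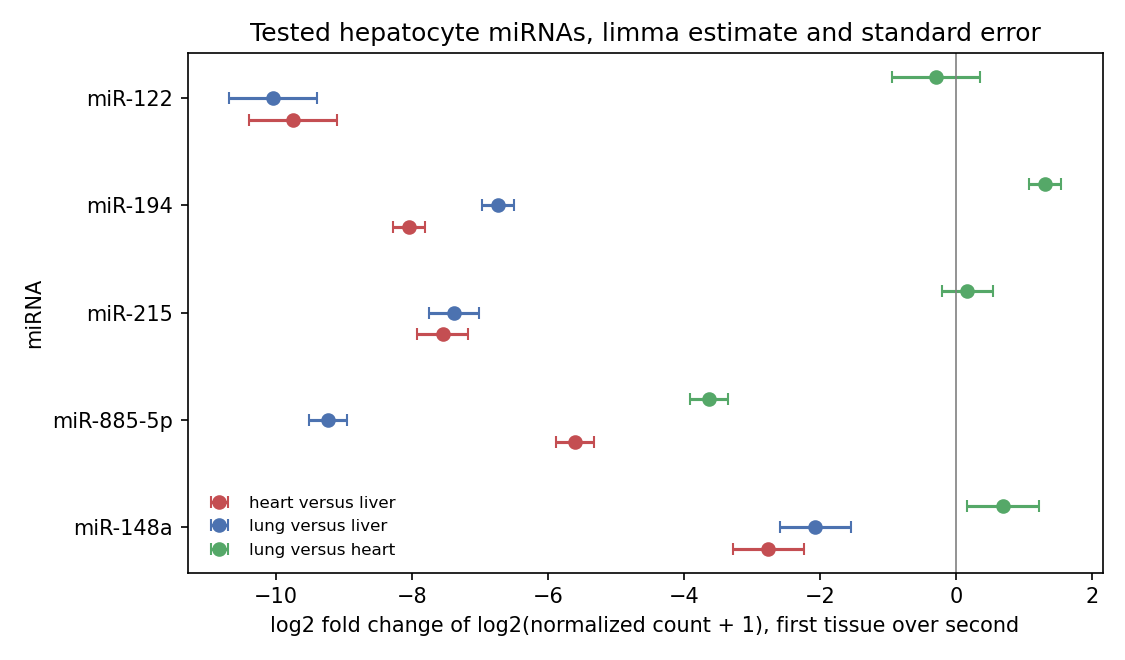
Log2 fold change of log2(normalized count + 1) (x axis) of the 5 tested hepatocyte miRNAs (y axis) in heart versus liver, lung versus liver and lung versus heart, the first tissue over the second. Each point is the estimate from limma, with its standard error as a bar. miR-194 lies at -8.05, -6.73 and 1.31 and miR-215 at -7.55, -7.38 and 0.17.

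In a ratio within a library the size factor cancels, apart from the pseudocount of 1, which weighs most on the low miR-215. Log2 ratios were compared between tissues by an exact two-sided permutation test, in which 4 libraries against 4 allow no p below 0.0286, with adjustment over all 9 tests. miR-194 exceeded miR-215 in every library, by 4.33 to 6.98 times in liver (median 5.94), 4.76 to 14.6 times in lung (median 10.5) and 2.47 to 9.62 times in heart (median 3.59). The liver range was the narrowest. It overlapped with both other tissues, and lung and heart overlapped too. The lung ratio was 2.21 times that of heart (log2 difference 1.14, exact permutation p = 0.114, adjusted p = 0.206), and none of the 3 comparisons of miR-194 to miR-215 passed. Within horses, the log2 ratio was higher in lung than in heart in 4 of 4, by 0.18 to 2.42, where an exchange of signs within 4 horses allows no p below the 0.125 it gave (exact permutation test).

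Relative to miR-122, both members stood higher in heart and lung than in liver. In liver, miR-194 was at 0.0249 to 0.0363 of the level of miR-122. In heart it was at 0.0481 to 0.135 and in lung at 0.118 to 1.71, so that all 8 of these libraries lay above all 4 livers. The mean log2 ratio of miR-194 to miR-122 was -5.00 ± 0.24 in liver, -3.29 ± 0.72 in heart and -1.69 ± 1.77 in lung (SD, n = 4). That is 3.27 times higher in heart and 9.90 times higher in lung than in liver (exact permutation p = 0.0286 in both, adjusted p = 0.0643). For miR-215 to miR-122, heart was 4.61 times and lung 6.33 times above liver, with the same p-values and again without overlap. These differences reached the smallest p the test allows but did not pass after adjustment. With that floor, a ratio can pass only if most of the 9 tests reach it. The adjusted test therefore cannot decide whether these ratios differ. The lung of horse 27 weighed on both. It held 234 normalized counts of miR-122, against 1359 to 2294 in the other lungs, and was the only library with more miR-194 than miR-122. Without horse 27, the log2 difference of lung to liver fell from 3.31 to 2.38 for miR-194 and from 2.66 to 1.86 for miR-215. Where the low levels of miR-194 and miR-215 in heart and lung come from was not tested.

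**Figure D3:**
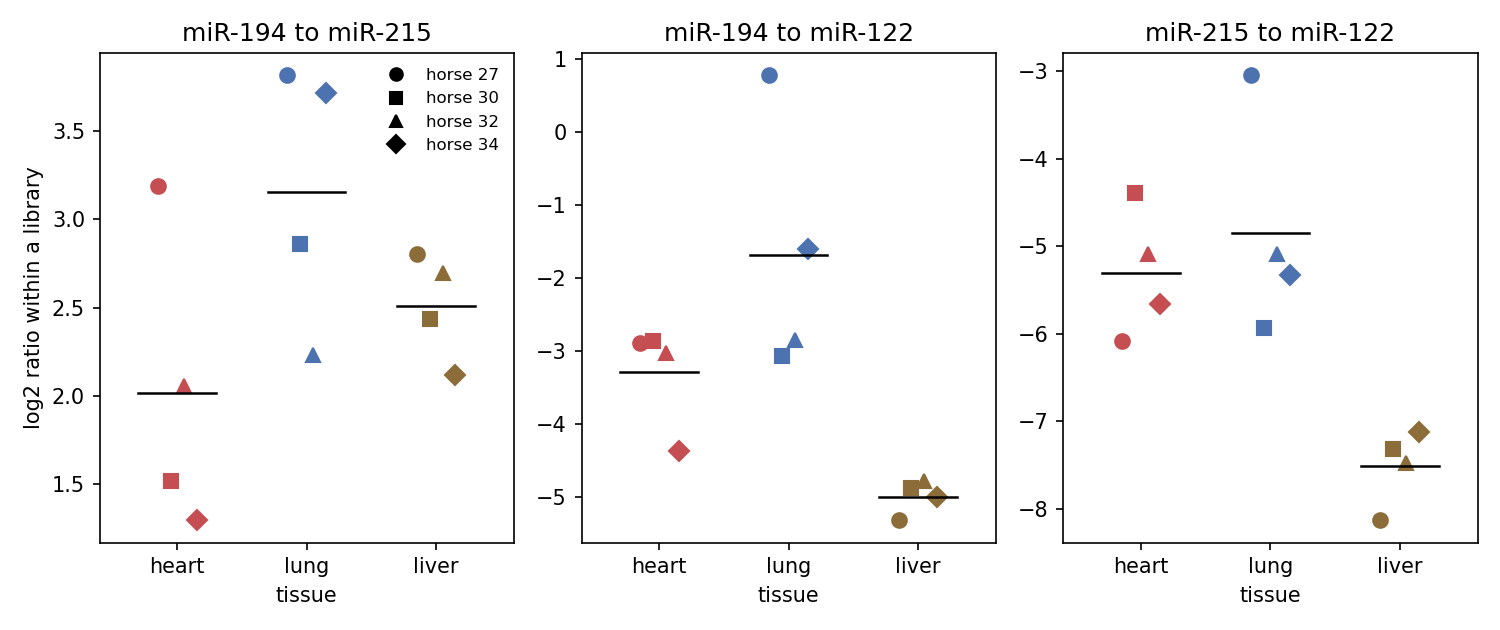
Log2 ratio of 2 miRNAs within each library (y axis, from normalized count + 1) by tissue (x axis), for miR-194 to miR-215, miR-194 to miR-122 and miR-215 to miR-122. Points are libraries, with a marker for each horse, and lines are means of 4. In the panels with miR-122 every liver lies below every heart and lung, and the panel of miR-194 to miR-215 shows overlap between all tissues.

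The members also differed in how far the 4 livers lay apart. The coefficient of variation (SD over mean) of miR-194 was 3.05%, the 2nd lowest of the 176 known miRNAs with a liver mean of at least 100 normalized counts, whose median was 23.6%. That of miR-215 was 25.1%, at place 96, with the liver of horse 34 highest, and without that liver it was 15.7%. The close agreement of miR-194 rests on the authors' scaling: with CPM values its coefficient was 11.5%, at place 20, with a median of 25.2% over the same 176, while that of miR-215 was 21.9%.

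**Figure D4:**
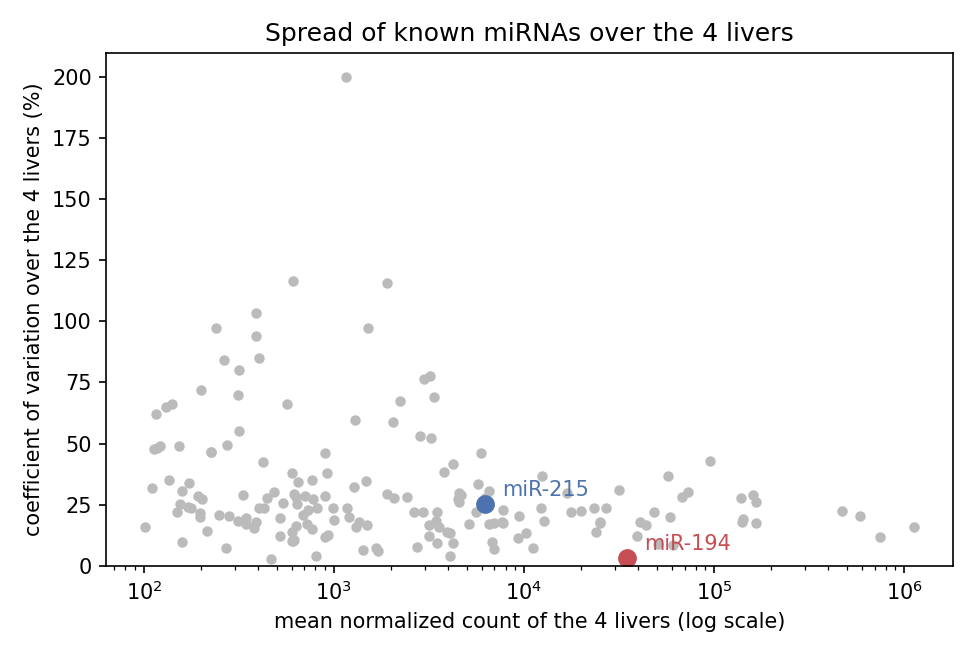
Coefficient of variation over the 4 livers in percent (y axis) against the mean normalized count of the livers (x axis, log scale) for the 176 known miRNAs with a liver mean of at least 100. Grey points are the other miRNAs. miR-194 lies at 3.05% and miR-215 at 25.1%.

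The known miRNAs most like each member over the 12 libraries were named by Pearson's r of log2(normalized count + 1), given as a description, since the 12 points share 3 tissues and any miRNA high in liver alone gives a high r. For miR-194 these were miR-31 (r = 0.982), miR-383 (0.978), miR-215 (0.978), miR-8908h (0.977) and miR-8908m (0.976). For miR-215 they were miR-122 (0.986), miR-8908h, miR-383, miR-8908c and miR-8908m, and miR-194 came 7th. miR-31 had the order of miR-194 as well, with 1912 ± 561 normalized counts in liver, 91.0 ± 38.6 in lung and 47.3 ± 20.5 in heart (SD, n = 4). Its livers, at 1375 to 2587, lay above its lungs, at 56.9 to 138. Lung and heart overlapped for miR-31, and its log2 fold change of lung over heart, 0.92, did not pass (adjusted p = 0.0649, limma). miR-383 and the 3 miR-8908 members, which share a family name and whose sequences were not compared here, were at 0 in every heart and lung.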

How the data were processed

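Small RNA libraries (NEBNext kit, Illumina NextSeq) were made from heart, lung and liver of the same 4 horses. By the study's methods, the authors kept reads of 18 to 25 bases (Trim Galore 0.6.7, FastQC 0.12.1), counted them with sRNAbench against miRBase 22.1 and EquCab 3.0 at a minimum of 6 reads, and normalized them with DESeq2. The submitters' processing notes name Trimmomatic and BWA instead. The deposited values are normalized counts, that is, a signal made by dividing the counts of a library by its size factor. Columns with the authors' liver over lung comparison (fold change, test and p-values) were left aside.

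The lowest value above 0 of each library, divided by 6, gave the value of 1 read; all values were whole multiples of it (100%, within 0.01). Known miRNAs that reached 10 normalized counts in 4 or more libraries were tested with limma 3.58.1 in R 4.3.3 on log2(normalized count + 1) (variance trend, a mean per tissue, 12 libraries in 1 fit, Benjamini-Hochberg adjustment), checked on simulated data. That scale understates changes of low miRNAs. Other steps used Python 3.11.15 with scipy 1.17.1 and pandas 2.3.3.

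The members and lists were chosen with earlier results of these data known. Named were the members, the hepatocyte, muscle and epithelium lists, and the 5 known miRNAs most like each member. The horse number pairs the libraries, since it marks the same animal. Deviations from the tissue means correlated at -0.27 to 0.15 (median -0.06) for the 12 pairs of the same horse and at -0.27 to 0.36 (median 0.03) for 36 others. Alternatives were other pseudocounts, filters and scalings (CPM, TMM), the entries named by sequence added, a horse block, no fold minimum, and horses or libraries left out.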

Additional observations from a re-analysis of the deposited data

Results flagged for a closer look

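Of 15 sets of 4 libraries examined for a single library apart from the others (both members and their ratios in each tissue), 1 stood out by Dixon's 95% criterion, where chance gives about 1 in 20. The log2 ratio of miR-194 to miR-122 in the heart of horse 34 was -4.37, against -3.03 for the nearest of the other hearts, a gap of 0.895 of the whole range. That heart held 3116 normalized counts of miR-122, against 737 to 1161 in the others, while its miR-194 level of 150 lay within their range.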

How the results depend on the processing

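In heart versus liver and lung versus liver, both members kept direction and call under every alternative run. The log2 fold change of miR-194 ran from -9.25 to -7.91 and from -6.88 to -6.56, that of miR-215 from -8.74 to -7.17 and from -7.61 to -7.06. In lung versus heart, miR-194 kept its call, at 1.17 to 2.69. miR-215 in lung versus heart was called with CPM values (1.52), was -0.02 without horse 27 or horse 32 and -0.14 without the heart of horse 27, and ran from -0.14 to 0.51 over the horses and libraries left out, without a call. The replicate block of the horse number changed no call of the members (miR-194 in lung versus heart: 1.31, adjusted p = 0.00151, limma). Differences of the ratios within horses, added after the data were seen, have the same means, and with 4 horses no p below 0.125 is possible. The ratio of miR-215 to miR-122 in lung versus heart, a log2 difference of 0.46, became -0.40 without horse 27 and ran up to 1.12 over the horses left out; no other ratio turned. With 3 libraries a tissue no ratio test can pass, so these were compared as values. The liver coefficient of variation of miR-194 was 11.5% with CPM values and 2.14 to 3.66% over the livers left out, and that of miR-215 was 15.7 to 31.0% over the livers left out. The 2 planned tests on reads were not run. Depth limits miR-215 in heart (13 to 36 reads) and lung (29 to 72 reads).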

Other observations

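The table also holds 335 entries named only by their sequence. Among those that reached 10 normalized counts in 4 or more libraries, the same 3 had the highest Pearson's r with both members over the 12 libraries (0.983 to 0.985 with miR-194 and 0.989 to 0.992 with miR-215). They were chosen after their values were seen, and they are shown because each was above 0 in all 4 livers and listed at 0 in every heart and lung, which the members were not. The first averaged 497 ± 110 normalized counts in liver (SD, n = 4), the next 96.4 ± 24.8 and the last 45.6 ± 11.9. The liver means of the members were 34984 for miR-194 and 6274 for miR-215. A listed 0 can hide low counts, and all 3 entries were far lower in liver than both members. Whether these zeros set the entries apart from the members was not tested. The sequences of the 3 entries were not compared with those of known miRNAs here, and what they derive from was not tested.
first entry: uggggagugacaaugguguu
next entry: cugcccuggacugugccugcagg
last entry: uggagugugacaguggugc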
